A study of Mus musculus with 6 samples.

Results

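The genes described here encode the growth factor IGF1, the receptors that bind IGF1 and insulin, their docking substrates and the main IGF-binding proteins of muscle. They are *Igf1*, *Igf1r*, *Insr*, *Irs1*, *Irs2*, *Igfbp2*, *Igfbp3*, *Igfbp4*, *Igfbp5* and *Igfbp7*, 10 of the 56262 genes in the count table and 10 of the 22071 genes with enough counts to be tested. They were chosen by name, with earlier results of these data known, and their rows were found through the Ensembl gene ID. The samples are 3 WT and 3 *SYISL* KO samples of fetal mouse leg muscle from embryonic day 18.5. *SYISL* is a long noncoding RNA of skeletal muscle, and the comparison asks how gene expression differs in fetuses that lack it. Fetuses came from matings of mice of the same genotype, so each KO fetus also had a KO mother, and the part of the mother and that of the fetus cannot be told apart. WT mice came from an animal center and the KO line was made earlier by the same group. The litters, the sexes and any pooling of fetuses are not given in the sources used here. The p-values therefore measure the spread between these samples, which may be partly technical.

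IGF1 is made in the liver and also within muscle, where it acts on neighboring cells. It binds its receptor IGF1R, a tyrosine kinase closely related to the insulin receptor, and the kinases phosphorylate the docking proteins IRS1 and IRS2. These recruit PI3 kinase, which leads to AKT and mTORC1 and to export of FoxO factors from the nucleus, a route known to favor protein synthesis and growth of muscle fibers. The IGF-binding proteins are secreted. They hold most extracellular IGF, extend its lifetime and limit or deliver it to the receptor, and proteases release IGF by cutting them.

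Each sample held 82054811 to 102233181 counts, and each of the 10 genes had at least 2175 counts in every sample. Levels are given as CPM, counts per 1000000 counts of the library after scaling by TMM. Log2 differences are log2 fold changes of KO over WT with their SE, and p-values are those of edgeR's quasi-likelihood test after Benjamini-Hochberg adjustment over all genes tested. SE is the standard error. A gene was said to rise or fall at an adjusted p under 0.05, and was called a DEG if it also differed more than 1.5-fold. The annotation used gives *SYISL* no symbol, so its deletion was not checked in the counts. Muscle fiber markers were abundant in all samples, with a summed level of 16932 to 19011 CPM in WT and 36170 to 44025 CPM in KO. Other cell types also moved with genotype. The 8 epidermal markers, with *Krt1* and *Krt10* the most counted, summed to 16073 to 24208 CPM in WT and 682 to 789 CPM in KO, and all 8 were DEGs lower in KO. Their log2 differences were uneven, from -1.35 for *Trp63* and -1.96 for *Krt5* to -5.47 for *Krt1* and -10.2 for *Krt77*. The sum therefore mostly follows its most counted markers. The 5 red blood cell markers, all DEGs lower in KO, summed to between 1421 and 1731 CPM in WT and between 208 and 234 CPM in KO. The 6 fat markers, all DEGs higher in KO, summed to between 105 and 137 CPM in WT and between 340 and 402 CPM in KO. No marker of any list was at 0 in all samples. In bulk samples, fewer cells of a type and less RNA per cell cannot be told apart.

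Of the 10 genes, 7 rose and 1 fell in KO. Across all genes tested, 21.9% were higher and 23.1% were lower at the same threshold. The largest difference among the 10 was that of *Igfbp3*, which rose 1.75-fold and was the only DEG of the 10. Among all genes, 8.31% were DEGs higher in KO and 8.39% were DEGs lower in KO. *Irs2*, *Igfbp7* and *Insr* rose between 1.41- and 1.45-fold, whereas *Igf1*, *Igf1r* and *Irs1* rose by 0.15 to 0.18 on the log2 scale. *Igfbp2* fell, and *Igfbp4* and *Igfbp5* did not pass the test. WT and KO values did not overlap for 8 of the 10 genes, a state shared by 55.9% of all genes tested. The median log2 difference of the 10 genes was 0.17, against -0.004 for all genes tested.

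**Figure D1:**
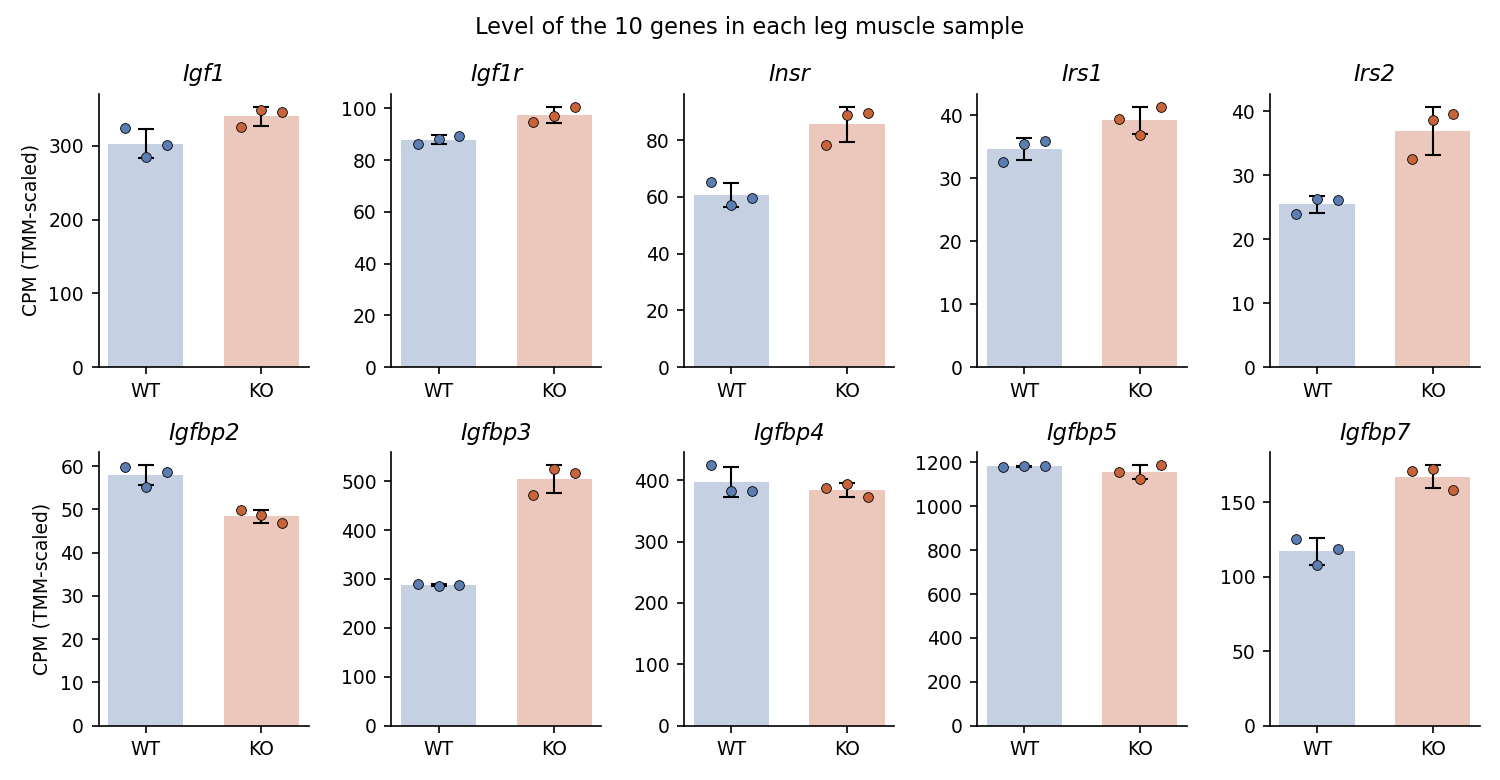
Level of each of the 10 genes in every leg muscle sample, in CPM with TMM-scaled totals, with WT on the left and KO on the right of each panel. Points are samples, bars are means of 3 samples and error bars are SD; *Igfbp3* lies between 286 and 291 CPM in WT and between 472 and 525 CPM in KO.

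Among the ligands, *Igf1* (ENSMUSG00000020053.18, mm10 chr10:87858265-87937042, plus strand) encodes the growth factor itself. Its level was 324, 285 and 301 CPM in the WT samples and 325, 349 and 347 CPM in the KO samples. The groups did not overlap, but the highest WT sample and the lowest KO sample lay almost side by side. The WT mean was 303 ± 19.7 CPM and the KO mean 340.2 ± 13.2 CPM (SD, n = 3 per genotype), which gives a log2 difference of 0.17 (SE 0.057, adjusted p = 0.0403 by edgeR's quasi-likelihood test). This rise was not stable. It no longer passed without WT replicate 2 or 3 or KO replicate 2 or 3, with log2 differences of 0.12 to 0.16, or with library size in place of TMM, at 0.096. Over 15 alternative settings the adjusted p ranged from 0.0017 to 0.217. *Igf2*, the fetal growth factor from an imprinted gene, was examined beside it. *Igf2* had 143, 191 and 151 CPM in WT and 183, 211 and 237 CPM in KO, with overlap between the groups. Its log2 difference was 0.38 (SE 0.116, adjusted p = 0.0230, edgeR). Its exons overlap those of the antisense gene *Igf2os* on the opposite strand, and the strand setting of the counting is not given in the sources used here. The insulin genes were not tested, since *Ins1* had no count in any sample and *Ins2* had 3 to 6 counts.

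Among the receptors, *Insr* changed more than *Igf1r*. *Igf1r* (ENSMUSG00000005533.10, chr7:67952827-68233668, plus strand) encodes the receptor with the highest affinity for IGF1. It was measured at 86.1, 88.3 and 89.5 CPM in WT and at 94.7, 96.9 and 101 CPM in KO. All KO samples lay above all WT samples, and the spread within each genotype was small. The mean went from 88.0 ± 1.75 to 97.5 ± 3.03 CPM (SD, n = 3 per genotype), a log2 difference of 0.15 (SE 0.038, adjusted p = 0.0112, edgeR). With library size in place of TMM it did not pass, at 0.079. Without KO replicate 3 the log2 difference was 0.13 and just missed the threshold, with an adjusted p of 0.0503 in a range of 0.0014 to 0.132 over the alternatives. *Insr* (ENSMUSG00000005534.10, chr8:3122061-3279617, minus strand) encodes the insulin receptor, which can also pair with IGF1R into hybrid receptors. It had 65.3, 57.1 and 59.6 CPM in WT and 78.5, 89.0 and 89.5 CPM in KO. The groups were well apart, and KO replicate 1 was the lowest of its group. The rise from 60.7 ± 4.19 to 85.7 ± 6.22 CPM was 1.41-fold, with a log2 difference of 0.50 (SE 0.064, adjusted p = 2.02e-04, edgeR). It passed the test under all 15 alternatives, with log2 differences of 0.43 to 0.56. Of the other receptors on the pathway list, *Igf2r*, which clears IGF2, averaged 453 ± 4.20 CPM in WT against 458 ± 1.81 in KO, and its 95% interval on the log2 scale was -0.08 to 0.11. *Insrr*, an insulin receptor-related kinase, averaged 0.564 ± 0.170 CPM in WT against 0.266 ± 0.0504 in KO. It was a DEG with a log2 difference of -1.08 (adjusted p = 0.0095, edgeR), but had only 21 to 72 counts per sample.

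The balance of the receptors was also compared as a ratio of levels per length, that is CPM per kb of merged exons. *Igf1r* to *Insr* stood at 1.08, 1.27 and 1.23 in the WT samples and at 0.988, 0.891 and 0.921 in the KO samples. On this scale *Igf1r* was the higher of the pair in every WT sample and *Insr* in every KO sample. In CPM without length scaling *Igf1r* was above *Insr* in every sample of both genotypes, so which of them leads depends on the scale. The log2 difference of the ratio was -0.35, and the groups did not overlap (exact two-sided permutation test, p = 0.1, adjusted over 3 ratios 0.15). With 3 samples against 3, 0.1 is the smallest p this test can give, so it cannot pass 0.05.

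The receptor substrates IRS1 and IRS2 carry the signal from both receptors. *Irs1* (ENSMUSG00000055980.2, chr1:82233101-82291416, minus strand) and *Irs2* (ENSMUSG00000038894.7, chr8:10984681-11008458, minus strand) share an arrangement of letters just upstream of their start sites. The 250 bases before each RefSeq start site, in the GRCm38.p6 build, are shown because both genes rose and both windows hold the same pair of motifs. Both windows lie outside the annotated gene, on the minus strand, at chr1:82291440-82291689 for *Irs1* and chr8:11008930-11009179 for *Irs2*. The *Irs2* window begins at 11008930, some way beyond the annotated gene boundary at 11008458. Positions below are therefore those from the RefSeq start site only. Capitals mark CACGTG, the E-box read by many helix-loop-helix factors, and TGTTTTG, the core letters of the insulin response sequence that FoxO factors are known to bind.
Irs1: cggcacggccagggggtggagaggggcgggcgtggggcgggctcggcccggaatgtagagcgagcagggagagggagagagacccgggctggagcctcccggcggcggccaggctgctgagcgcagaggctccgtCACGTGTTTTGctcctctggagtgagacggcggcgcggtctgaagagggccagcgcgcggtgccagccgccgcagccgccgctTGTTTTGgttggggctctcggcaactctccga
Irs2: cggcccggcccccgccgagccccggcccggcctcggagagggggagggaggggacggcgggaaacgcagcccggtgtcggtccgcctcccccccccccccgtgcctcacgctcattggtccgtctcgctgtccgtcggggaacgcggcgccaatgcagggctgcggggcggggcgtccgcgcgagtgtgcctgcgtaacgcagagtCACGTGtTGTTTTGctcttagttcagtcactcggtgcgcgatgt
In *Irs1* the E-box starts at position -115 from the start site and runs into a TGTTTTG that overlaps it by 2 bases, and another TGTTTTG lies nearer to the start. In *Irs2* the E-box starts at -44 and the TGTTTTG at -37, with a single base between them. Searched on both strands, CACGTG was found in 6.02% and TGTTTTG in 5.56% of 32851 RefSeq windows of this length. Both were found together in 0.295%, and their starts lay within 12 bases of each other in 7 windows (0.0213%). Of those 7, 3 belonged to *Irs1*, *Irs2* and *Irs4*, and the other 4 to *Klf11*, *Pcbp1*, *Pyroxd1* and *1700019P21Rik*. These motifs were chosen after the sequences were seen, and a match describes letters only. *Irs4*, whose window holds the E-box at -154 and TGTTTTG at -147, did not move with the other members of its family. It averaged 0.633 ± 0.150 CPM in WT against 0.324 ± 0.0759 in KO. It was a DEG with a log2 difference of -0.97 (adjusted p = 0.0085, edgeR), but had only 26 to 85 counts per sample.

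*Irs2* was the substrate with the larger difference. It had 23.9, 26.3 and 26.2 CPM in WT and 32.6, 38.6 and 39.6 CPM in KO. No KO sample came near the WT range, although KO replicate 1 again was the lowest of the KO samples. Its mean rose 1.45-fold, from 25.5 ± 1.35 to 36.95 ± 3.79 CPM (SD, n = 3 per genotype), with a log2 difference of 0.54 (SE 0.075, adjusted p = 3.43e-04, edgeR). The value is close to the 1.5-fold threshold, and *Irs2* was also called a DEG with upper-quartile factors (0.61) and without KO replicate 1 (0.625). *Irs1*, the substrate prominent in muscle insulin signaling, had 32.6, 35.4 and 35.95 CPM in WT and 39.5, 36.9 and 41.3 CPM in KO. The gap between the groups was smaller than the spread within either. The mean went from 34.7 ± 1.81 to 39.2 ± 2.19 CPM, a log2 difference of 0.18 (SE 0.055, adjusted p = 0.0251, edgeR). Without WT replicate 1 or KO replicate 3 it did not pass, at 0.135 and 0.15, nor with library size in place of TMM, at 0.1105, and the adjusted p ranged from 0.0047 to 0.146 over the alternatives. The per-length ratio of *Irs1* to *Irs2* was 0.943, 0.931 and 0.950 in WT and 0.837, 0.661 and 0.721 in KO. *Irs2* was thus the more abundant per length in all samples, and by a wider margin in each KO sample. The log2 difference was -0.35 (exact two-sided permutation test, p = 0.1, adjusted over 3 ratios 0.15). In CPM without length scaling *Irs1* was the higher in every WT sample and in KO replicates 1 and 3. The ratio of *Igf1* to *Igf2* overlapped between the groups, at 1.11 ± 0.226 in WT and 0.941 ± 0.0898 in KO (SD, n = 3 per genotype; p = 0.3 in the same exact test).

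**Figure D2:**
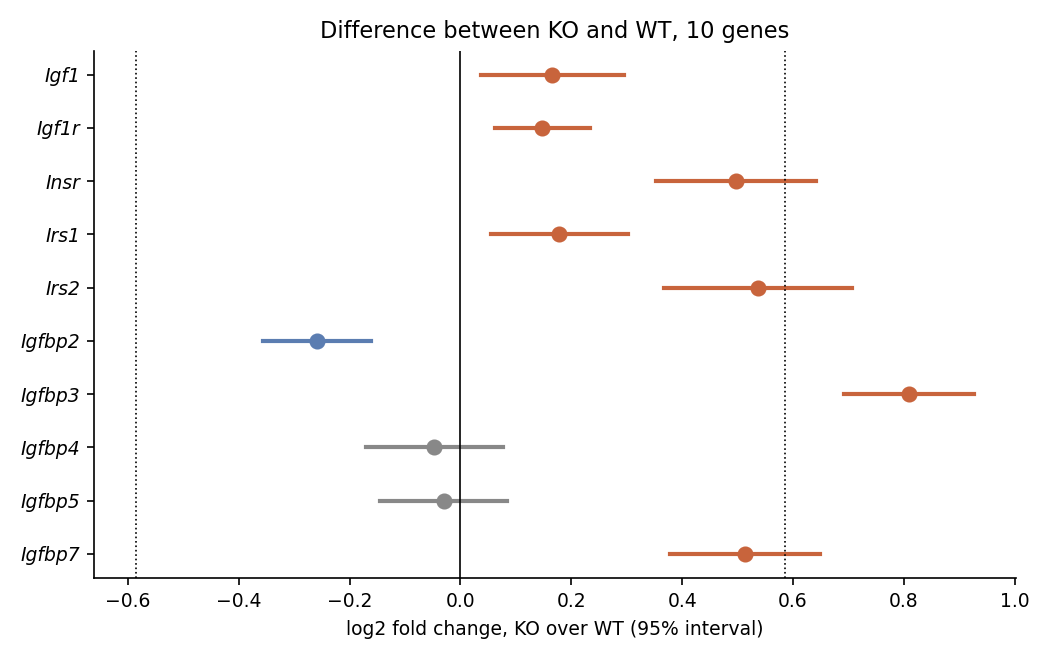
Log2 difference, KO minus WT, for the 10 genes, with bars for the 95% interval from edgeR; orange points rose, the blue point fell and gray points did not pass the test. The solid line marks no difference and dotted lines a 1.5-fold difference, beyond which only *Igfbp3* (0.81, 95% interval 0.69 to 0.93) lies as a point.

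The IGF-binding proteins differed from each other in direction. IGFBP3 is the main carrier of IGF in the circulation and is also made locally by connective tissue and endothelial cells. *Igfbp3* (ENSMUSG00000020427.11, chr11:7206086-7213923, minus strand) had 290.5, 286 and 287 CPM in WT and 472, 525 and 517 CPM in KO. The WT samples were nearly identical, and every KO sample exceeded them by far more than the spread in either group. The rise from 288 ± 2.29 to 505 ± 28.2 CPM (SD, n = 3 per genotype) was 1.75-fold, with a log2 difference of 0.81 (SE 0.052, adjusted p = 2.07e-06, edgeR). It stayed between 0.74 and 0.88 under all 15 alternatives and passed 1.5-fold in each. Its upstream window (chr11:7213924-7214173, minus strand, RefSeq start site in GRCm38.p6) is shown because it belongs to the member with the largest difference.
Igfbp3: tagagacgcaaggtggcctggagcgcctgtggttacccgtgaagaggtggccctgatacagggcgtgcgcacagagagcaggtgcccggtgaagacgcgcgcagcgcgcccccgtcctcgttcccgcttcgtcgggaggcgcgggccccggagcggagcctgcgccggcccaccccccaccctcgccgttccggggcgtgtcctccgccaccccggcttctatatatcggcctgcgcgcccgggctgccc
Of its bases, 73.2% are G or C. It holds none of the 4 motifs searched, which were the E-box, TGTTTTG, the GC box GGGCGG (32.7% of all windows) and the TATA box TATAAA (12.4%). This says only that these letters are not in the window.

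*Igfbp7* (ENSMUSG00000036256.13, chr5:77349240-77408041, minus strand) encodes a relative that binds IGFs weakly and is typical of vessels. It had 125, 108 and 119 CPM in WT and 171, 172 and 158 CPM in KO, with no overlap. The rise from 117 ± 8.91 to 167 ± 7.77 CPM (SD, n = 3 per genotype) was 1.43-fold, a log2 difference of 0.51 (SE 0.060, adjusted p = 1.07e-04, edgeR). Exons of *Igfbp7* overlap exons of *Polr2b*, an RNA polymerase subunit gene on the opposite strand, so a share of the counts may be exchanged between them. *Polr2b* went the other way, from 83.2 ± 0.931 to 76.0 ± 0.595 CPM (log2 difference -0.13, adjusted p = 0.0101, edgeR). *Igfbp2* (ENSMUSG00000039323.18, chr1:72824503-72852474, plus strand) encodes a binding protein abundant before birth. It was the only one of the 10 genes to fall, with 59.7, 55.2 and 58.7 CPM in WT and 49.7, 48.7 and 46.8 CPM in KO. Both groups were tight and did not overlap. The WT mean was 57.9 ± 2.35 CPM and the KO mean 48.4 ± 1.47 CPM, with a log2 difference of -0.26 (SE 0.043, adjusted p = 0.00102, edgeR), and under 15 alternatives it lay between -0.33 and -0.19.

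*Igfbp5* and *Igfbp4* showed no difference that passed the test. *Igfbp5* (ENSMUSG00000026185.8, chr1:72857932-72874884, minus strand) encodes the binding protein known for its induction when myoblasts differentiate. It had 1179, 1182 and 1183 CPM in WT and 1157, 1126 and 1188 CPM in KO. The KO samples spread to both sides of the WT values. The log2 difference was -0.030, with a 95% interval of -0.15 to 0.08 (adjusted p = 0.666, edgeR). *Igfbp4* (ENSMUSG00000017493.12, chr11:99041244-99054392, plus strand) encodes a binding protein mostly described as an inhibitor of IGF action and as the substrate of the protease PAPPA. It had 425, 383 and 383 CPM in WT and 387, 394 and 372 CPM in KO. Only WT replicate 1 stood above the rest. The log2 difference was -0.047, with a 95% interval of -0.17 to 0.08 (adjusted p = 0.524, edgeR). The direction of both depended on the setting, since *Igfbp4* and *Igfbp5* lay at 0.02 and 0.04 with upper-quartile factors and *Igfbp4* at 0.003 without WT replicate 1. *Igfbp6*, which prefers IGF2 and is on the pathway list, rose from 28.5 ± 1.87 to 40.0 ± 2.76 CPM (log2 difference 0.49, adjusted p = 2.15e-04, edgeR). *Igfbp1*, a product of the liver, had 5 to 15 counts per sample and was not tested.

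To compare genes with each other, levels were divided by the merged exon length. On this scale of CPM per kb, *Igfbp5* led in WT with 197 ± 0.349 (SD, n = 3), followed by *Igfbp7* with 96.9 ± 7.37, *Igfbp3* with 92.0 ± 0.732 and *Igfbp4* with 89.9 ± 5.48, and these last 3 did not differ beyond their spread. *Igfbp2* with 31.3 ± 1.27 and *Igf1* with 30.6 ± 1.99 came next and also did not differ beyond their spread. The receptors and substrates were lowest. *Igf1r* stood at 5.24 ± 0.104, *Insr* at 4.41 ± 0.305, *Irs2* at 4.03 ± 0.213 and *Irs1* at 3.79 ± 0.197 CPM per kb. *Igf1r* lay above *Insr* by more than the SD of either. The ranges of mean ± SD overlapped for *Insr* and *Irs2* and for *Irs2* and *Irs1*. Still, *Irs2* was above *Irs1* on this scale in every WT sample. In KO the order at the top was *Igfbp5* with 193 ± 5.19, *Igfbp3* with 161 ± 9.02, *Igfbp7* with 138 ± 6.43 and *Igfbp4* with 87.0 ± 2.48 CPM per kb. Here all 4 were separated by more than their SDs, and *Igfbp3* had moved above *Igfbp7*. *Igf1* in KO, at 34.4 ± 1.33 CPM per kb, lay above *Igfbp2* at 26.2 ± 0.798. At the bottom in KO stood *Insr* at 6.23 ± 0.453, *Irs2* at 5.84 ± 0.599, *Igf1r* at 5.80 ± 0.180 and *Irs1* at 4.29 ± 0.239 CPM per kb, and of these only *Irs1* was separated from its neighbor. Merged exons include every annotated isoform, so genes with long alternative exons are understated on this scale.

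Summed over *Igfbp1* to *Igfbp7*, binding protein transcripts stood at 546, 521 and 530 CPM per kb (rounded) in WT and at 633, 651 and 640 CPM per kb in KO. The mean sum was 532 ± 12.8 in WT and 641 ± 9.19 CPM per kb in KO (SD, n = 3 per genotype), and no sample of one group reached the other. The composition shifted with it. *Igfbp5* made up 37.0% ± 0.932 of the sum in WT and 30.0% ± 1.11 in KO, while *Igfbp3* went from 17.3% ± 0.276 to 25.1% ± 1.11. *Igfbp7* went from 18.2% ± 0.988 to 21.6% ± 0.997, and *Igfbp4* from 16.9% ± 0.651 to 13.6% ± 0.350. *Igfbp2* held 5.89% ± 0.136 in WT and 4.09% ± 0.151 in KO. Without length scaling the difference shrank from 3.387 to 1.613 percentage points for *Igfbp7* and from -1.799 to -0.692 for *Igfbp2*. Shares of one sum depend on each other, so *Igfbp5* and *Igfbp4* lost share with no difference in level that passed the test. These shares are a description with no test.

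**Figure D3:**
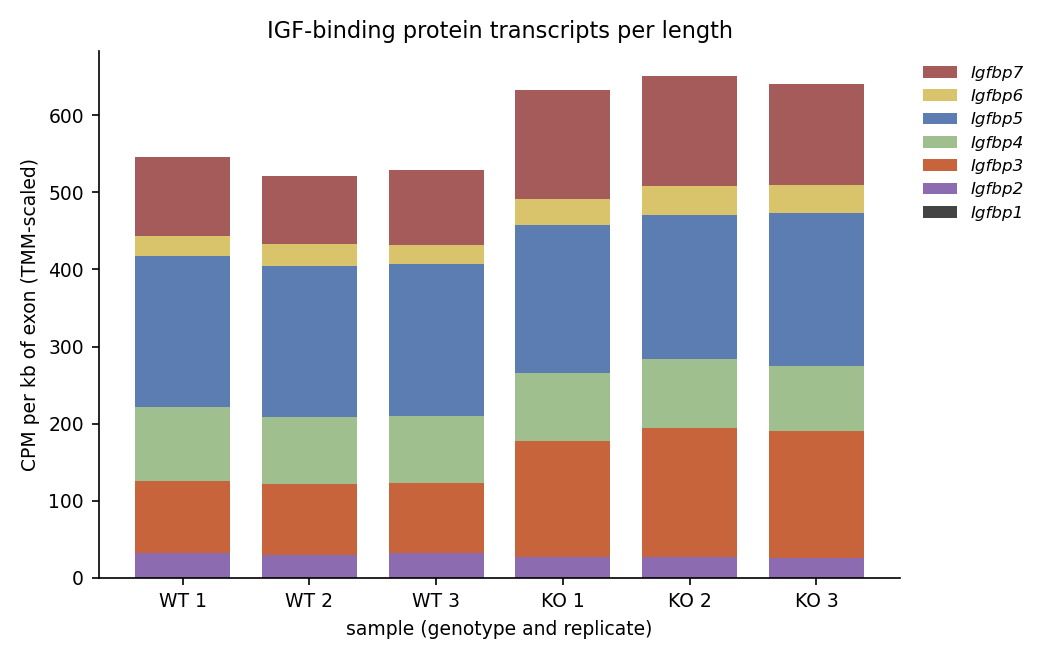
Transcripts of the 7 IGF-binding protein genes in each sample, stacked, in CPM per kb of merged exons. The WT stacks reach 521 to 546 and the KO stacks 633 to 651 CPM per kb, and the *Igfbp3* layer is the one that widens most.

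The 10 genes were then set beside a list of 68 genes of the pathway, of which 64 were tested. The list was also chosen with earlier results of these data known. On this list 28 genes rose, 12 fell and 24 did not pass, with a median log2 difference of 0.10, where 21.9% of all genes tested were higher and 23.1% lower. These shares are also the background of the counts per role given next. Leaving out the 10 genes, 21 rose, 11 fell and 22 of 54 did not pass, with a median of 0.06. Of these 54, 5 were DEGs higher and 4 were DEGs lower in KO, where 8.31% and 8.39% of all genes tested were, so the DEG counts are near the background. Genes that passed all rose for ligands (2 genes), proteases with their regulators (3) and FoxO with GSK3 (1), and ran in both directions for the other roles. With 1 gene passing, a shared direction was fixed in advance for FoxO with GSK3.

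Around the binding proteins, *Igfals* encodes the acid-labile subunit that joins IGF and IGFBP3 in a ternary complex. It rose from 0.174 ± 0.0520 to 0.486 ± 0.0229 CPM (SD, n = 3 per genotype), on only 13 to 48 counts per sample. Its log2 difference was 1.48 (adjusted p = 7.20e-04, edgeR). *Pappa2*, a protease that cuts IGFBP3 and IGFBP5, had 30.4, 33.5 and 31.3 CPM in WT and 51.0, 45.7 and 49.1 CPM in KO, without overlap. Its log2 difference was 0.62 (SE 0.053, adjusted p = 1.43e-05, edgeR), and it fell just short of 1.5-fold with library size alone (0.55), with a covariate for Y-linked counts (0.58) and without WT replicate 1 (0.58). Of the 5 genes for proteases and their regulators, 3 rose and 2 did not pass. *Pappa*, the IGFBP4 protease, rose by 0.32 (adjusted p = 0.0321) and its inhibitor *Stc1* by 0.21 (adjusted p = 0.0137) on the log2 scale, whereas *Stc2* had a log2 difference of 0.09 (adjusted p = 0.357) and *Htra1* one of -0.12 (adjusted p = 0.145, all edgeR).

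Among substrates and adaptors, 3 of 8 rose and 2 fell. Besides *Irs1* and *Irs2*, *Ptpn11* rose by 0.12 on the log2 scale (adjusted p = 0.0318), and besides *Irs4*, *Gab1* fell by 0.24 (adjusted p = 0.00207, both edgeR). Of 9 genes for PI3 kinase, PDK1 and AKT, 5 rose and 3 fell. *Pik3r1*, the main regulatory subunit of PI3 kinase, rose from 81.7 ± 2.82 to 109 ± 4.26 CPM (log2 difference 0.41, adjusted p = 5.13e-05, edgeR). *Pik3r3*, another regulatory subunit, fell by 0.40 (adjusted p = 0.00225), and the catalytic subunit gene *Pik3cb* was a DEG that fell from 16.3 ± 1.17 to 10.02 ± 0.608 CPM (log2 difference -0.71, adjusted p = 5.03e-05, edgeR). *Akt1*, which averaged 268 ± 3.55 CPM in WT against 276 ± 2.44 in KO, did not pass (log2 difference 0.05, adjusted p = 0.386, edgeR).

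Of 11 genes of the mTORC1 branch, 3 rose, 3 fell and none was a DEG. The largest differences were those of *Ddit4*, an mTORC1 inhibitor induced by stress, which fell by 0.42 (adjusted p = 0.00373), and *Deptor*, which binds mTOR and holds it back and which rose by 0.40 on the log2 scale (adjusted p = 9.02e-04, both edgeR). *Mtor* itself had a log2 difference of 0.02 (adjusted p = 0.712, edgeR). Of 5 genes for FoxO factors and GSK3, only *Foxo1* passed, rising from 36.3 ± 0.324 to 39.7 ± 0.535 CPM (log2 difference 0.13, adjusted p = 0.0160, edgeR).

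The widest differences on the list were found among the 13 genes for inhibitors of the pathway, of which 5 rose, 2 fell and 4 were DEGs. *Socs2*, a feedback inhibitor of growth hormone signaling that also binds IGF1R, had 16.5, 15.1 and 15.6 CPM in WT and 37.8, 35.4 and 35.6 CPM in KO. Each KO sample had over 2 times the level of any WT sample (log2 difference 1.20, SE 0.053, adjusted p = 2.08e-07, edgeR). *Fbxo40*, a muscle ubiquitin ligase subunit that targets IRS1 for degradation, had 2.99, 2.65 and 3.20 CPM in WT and 7.87, 12.1 and 12.5 CPM in KO. KO replicate 1 was the lowest of the KO samples but lay well above WT (log2 difference 1.87, SE 0.168, adjusted p = 1.86e-05, edgeR). *Trim72*, a membrane repair protein of muscle that also acts on IRS1 and INSR as a ubiquitin ligase, rose from 94.7 ± 0.857 to 147 ± 10 CPM (log2 difference 0.63, adjusted p = 8.89e-06, edgeR), and was below 1.5-fold with library size alone (0.56). *Trib3*, a pseudokinase that binds AKT, had 4.74, 7.72 and 5.78 CPM in WT and 1.43, 1.49 and 1.46 CPM in KO. The WT values were spread widely and the KO values hardly at all (log2 difference -2.05, SE 0.168, adjusted p = 9.73e-06, edgeR). *Grb10*, the imprinted adaptor that inhibits both receptors, averaged 1507 ± 26.1 CPM in WT against 1620.0 ± 37.7 in KO and did not pass (log2 difference 0.10, adjusted p = 0.144, edgeR).

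**Figure D4:**
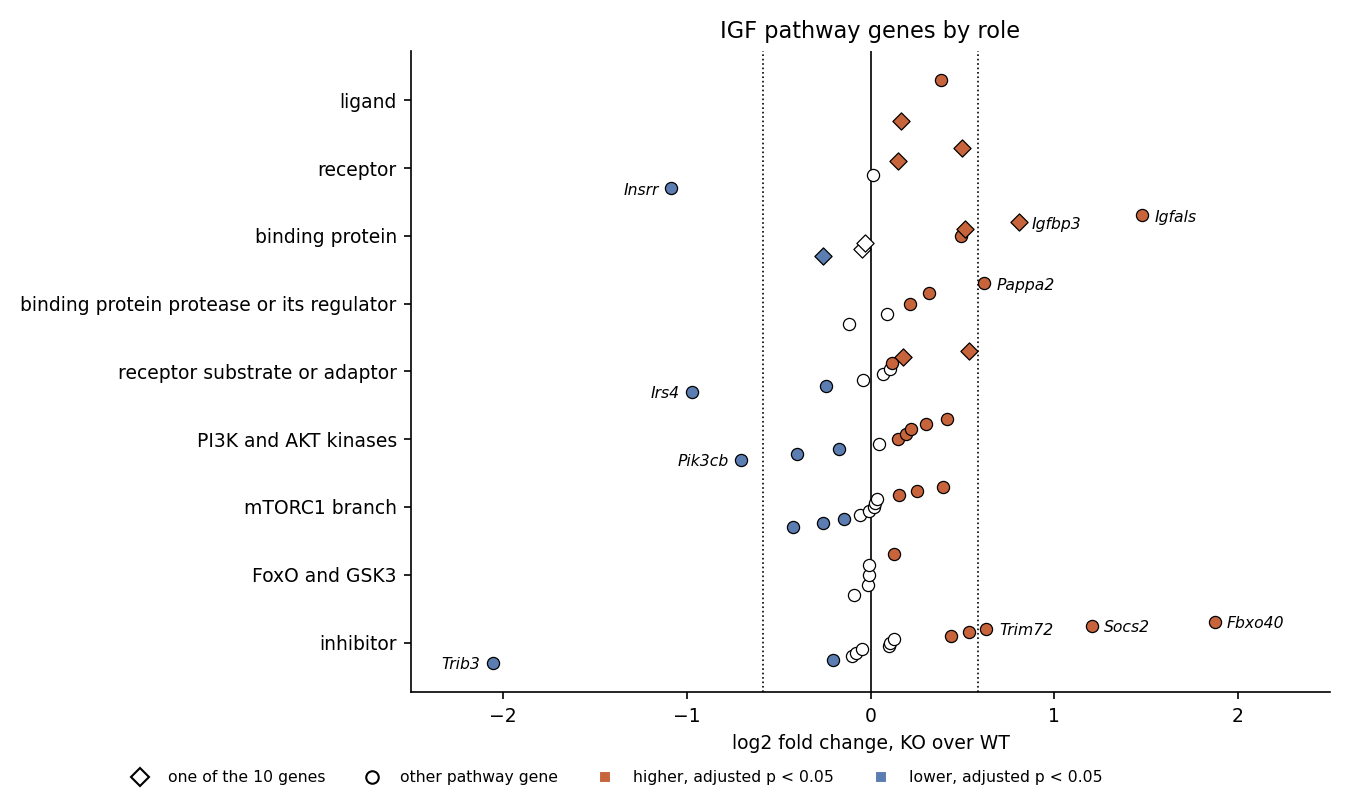
Log2 difference, KO minus WT, for the 64 tested genes of the pathway list, 1 row per role, with diamonds for the 10 genes, circles for the others, and white for genes that did not pass the test. Dotted lines mark a 1.5-fold difference and DEGs are named; the widest spread is that of the inhibitors, from *Trib3* at -2.05 to *Fbxo40* at 1.87.

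Markers of the cell types that make or receive IGF signals were set beside these values. Muscle fiber markers rose for 5 of 6 genes, all 5 as DEGs. Of 5 fibroblast markers 4 rose, none as a DEG, with sums of 28236 to 31224 CPM in WT and 34380 to 35516 CPM in KO and a median log2 difference of 0.19. Of 5 endothelial markers 4 also rose, none as a DEG, with sums of 601 to 634 CPM in WT and 700 to 736 CPM in KO and a median of 0.17. Of 5 macrophage markers 4 rose, 3 of them as DEGs, with a median of 0.72, whereas *Lyz2* fell (log2 difference -0.27, adjusted p = 0.0057, edgeR). The median was 1.24 for muscle fiber and 2.55 for fat markers. Of 4 satellite cell and myoblast markers 2 fell, with a median of -0.18. The medians given here ran from -0.18 to 2.55, a wide span. Medians of other marker lists went lower, such as -4.65 for epidermal, -3.10 for red blood cell and -0.96 for cartilage markers. Of the 10 genes, *Igfbp2* (-0.26) lay below the medians given first, but all 10 lay within the span of all marker lists. Within WT, the summed epidermal markers were lowest in replicate 1 and highest in replicate 2. Only *Irs2* of the 10 genes followed that order, as 25.5% of all genes tested did. *Igf1*, *Insr*, *Igfbp2*, *Igfbp3* and *Igfbp7* ran in the reverse order, lowest in replicate 2 and highest in replicate 1. The share of all genes in the reverse order was not counted. Y-linked genes, which are read only in males, were at most 0.0749 CPM of the unscaled totals in WT replicate 2 and KO replicate 1. In the other 4 samples they were 61.8 to 172 CPM. Within WT they ran in the same reverse order, at 0.0244, 72.1 and 172 CPM in replicates 2, 3 and 1, so the 2 orders cannot be told apart. *Igf1*, *Insr* and *Igfbp3* were lowest of their group in both WT replicate 2 and KO replicate 1. That is 30% of the 10 genes, against 13.7% of all genes tested. With the Y-linked share as a covariate, *Igf1* had a log2 difference of 0.21 (adjusted p = 0.00171, edgeR), the lowest adjusted p of its 15 alternatives. The part of cell composition in the differences was not tested.

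The genes whose profile over the 6 samples was most like those of the ligand and its receptor were also sought, by the root-mean-square distance between log2 CPM values centered on their mean, among 12371 genes with a mean of at least 5 CPM. For *Igf1* they were *Prkar2b* (distance 0.0144), *Msantd4* (0.0158) and *Fem1c* (0.0159). For *Igf1r* they were *Syde1* (0.00873), *Igdcc4* (0.0116) and *Cux1* (0.0137). All 6 had log2 differences between 0.14 and 0.19, and the distance over 6 samples is a description.

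**Figure D5:**
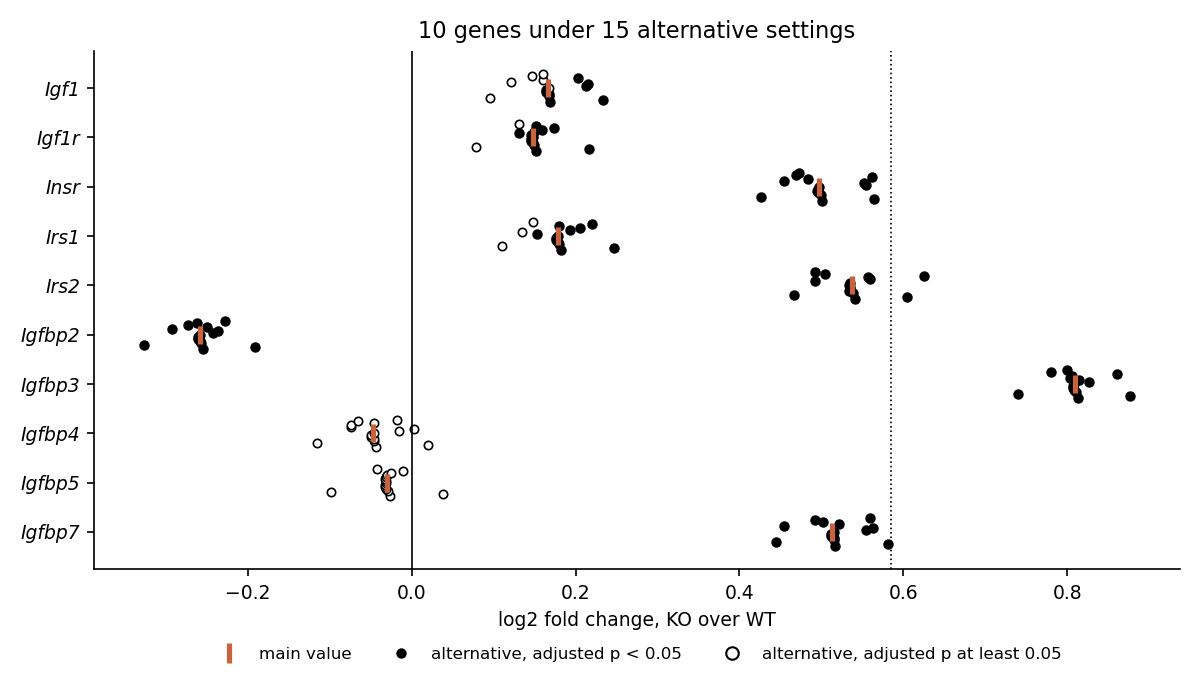
Log2 difference, KO minus WT, for the 10 genes under 15 alternative settings, with the orange bar for the main value, filled points for an adjusted p under 0.05 and open points for one of at least 0.05. *Insr*, *Irs2*, *Igfbp2*, *Igfbp3* and *Igfbp7* passed in all 15, *Igf1r* in 13, *Irs1* in 12, *Igf1* in 9, and *Igfbp4* and *Igfbp5* in 0.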

How the data were processed

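RNA-seq counts of leg muscle from 3 WT and 3 KO mouse fetuses of embryonic day 18.5 were used. The authors trimmed 150 bp paired-end reads with Trim Galore 0.6.6, mapped them to mm10 with HISAT2 2.2.1 and deposited raw counts per gene from featureCounts 2.0.1, without normalization. The annotation, the strand setting and the handling of multi-mapped reads are not given in the sources used here, so counts of overlapping genes cannot be told apart. Per-sample tables and the table of the series held the same counts. Of 56262 gene IDs, 54435 matched GENCODE M21 exactly and 792 by the ID without its version, and 1035 did not match. GENCODE gave symbols, positions and merged exon lengths.

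Counts were tested in R 4.3.3 with edgeR 4.0.16 on genotype alone, with filterByExpr, TMM factors and the quasi-likelihood F-test, adjusted over 22071 genes. The biological coefficient of variation was 7.68%, and a count of 0 allows up to 3 counts, or 0.0293 to 0.0366 CPM, for counting error only. Replicates of a genotype differed beyond sampling noise (chi-square per gene 5.17 to 35.5 on average). On simulated data with 22071 genes, of which 200 were changed equally in both directions, edgeR called 13 unchanged genes. In the data themselves 4838 genes passed as higher and 5098 as lower, a setting that the simulation did not cover. At a mean of at least 5 CPM it called 52 of 52 genes changed 2-fold and 35 of 57 changed 1.25-fold. Over all levels it called 67 of 100 genes changed 2-fold.

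The 10 genes, the pathway list and the marker lists were chosen with earlier results of these data known. All 10 were named, with DEGs and the largest differences of each role on the pathway list, other pathway genes for comparison after their values were seen, and the 3 genes of nearest profile to *Igf1* and *Igf1r*. Upstream windows came from RefSeq for 9 of the 10 genes, and *Insr* was not among them. The alternatives were RLE and upper-quartile factors, library size only, DESeq2 1.42.0, limma-voom (limma 3.58.1), no filter, a minimum of 10 counts in all samples, a replicate block, Y-linked counts as a covariate, leaving out each sample, other fold thresholds, and no length scaling.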

Additional observations from a re-analysis of the deposited data

How the results depend on the processing

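Of the 10 genes, *Insr*, *Irs2*, *Igfbp2*, *Igfbp3* and *Igfbp7* kept their direction and passed an adjusted p under 0.05 in all 15 alternative fits. With library size only, the log2 differences of *Igf1*, *Igf1r* and *Irs1* were 0.096, 0.079 and 0.1105 and did not pass. This scaling moved the median of all genes by -0.069 and upper-quartile factors moved it by 0.068. Upper-quartile factors put *Igfbp4* at 0.0205 and *Igfbp5* at 0.0377, turning their sign, and made 2 of the 10 genes DEGs. Without each sample in turn, the log2 difference was 0.121 to 0.215 for *Igf1*, 0.131 to 0.174 for *Igf1r*, 0.135 to 0.22 for *Irs1* and -0.0736 to 0.0033 for *Igfbp4*, and 1 to 2 of the 10 genes were DEGs higher in KO. No source ties the replicate numbers to litters, and deviations of same-numbered WT and KO samples correlated at -0.20, -0.13 and 0.05, so the numbers were not taken as pairs. With the replicate block *Igf1* had 0.167 and did not pass (adjusted p = 0.0891), and no other of the 10 genes changed its call. With no fold threshold 7 of the 10 genes were called higher and 1 lower, 28 and 12 of the pathway list, and 4838 and 5098 of all genes, where 1.5-fold gave 1835 and 1852. With a fold change over 2 these were 0 of the 10 higher, 3 and 2 of the pathway list, and 774 higher and 1269 lower of all genes. Without length scaling the shares of *Igfbp2*, *Igfbp4* and *Igfbp7* differed by -0.692, -2.471 and 1.613 percentage points, against -1.799, -3.308 and 3.387 with it. Where a call was lost, the cause was not tested. Each of the 10 genes had at least 2175 counts per sample, whereas *Ins1*, *Ins2*, *Igfbp1* and *Igfbpl1* did not pass the filter on low counts.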
